A study of Mus musculus with 6 samples.

Results

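The phagocyte oxidase and nitric oxide genes described here are Cybb, Cyba, Ncf1, Ncf4, Rac2, Nox4, Nos2, Nos3 and Arg1. They were chosen by gene symbol, and each of the 9 was found among the 33924 genes of the table. RPE/choroid, which is the retinal pigment epithelium with the vascular layer behind it, was taken from 3 young and 3 aged male C57BL/6J mice and sequenced as polyA RNA. By the sample titles the young mice were 1 to 2 months old and the aged mice 20 to 24 months, whereas the time field puts the latter at 22 to 24 months. The study's text makes the young mice slightly older, includes both sexes and uses a pair of eyes for each sample. The mice were from a commercial colony, with no transgene or treatment named in either group. The level used throughout is the authors' mean normalized count, a single value per gene over all 6 libraries of both ages. It carries no SD, so the spread between mice and the overlap of the age groups could not be examined. The other value columns of the table hold the authors' own age comparison, which was not used here, and therefore no difference between young and aged mice is given for any of these genes.

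The phagocyte NADPH oxidase moves electrons from NADPH across a membrane to oxygen and so makes superoxide, which phagocytes release onto engulfed material. Its catalytic core is a heterodimer in the membrane, and it becomes active when a set of cytosolic subunits and a Rac GTPase join it. Nitric oxide synthases make nitric oxide from arginine, and arginase splits the same amino acid into ornithine and urea. In the eye, macrophages of the choroid and microglia are the best known users of the phagocyte oxidase, whereas nitric oxide of the endothelium widens choroidal vessels.

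Promoter windows from RefSeq (build GRCm38.p6) were found for 4 of the 9 genes, namely Cybb, Cyba, Ncf1 and Nox4. The 250 bases before the RefSeq start of Cybb, Cyba and Nox4 are shown because these genes encode the catalytic subunits and the partner that both need. Capitals mark matches to any of 9 short motifs searched on both strands. The Cybb window lies on the minus strand at chrX:9469325-9469574, the Cyba window on the minus strand at chr8:122432941-122433190 and the Nox4 window on the plus strand at chr7:87246399-87246648. The RefSeq start differs from the outermost start in GENCODE, since it lies 18447 bases inside the annotated Cybb gene and 553 bases inside the annotated Nox4 gene. Both windows are thus inside the gene as GENCODE draws it, with 0 bases in annotated exons of that gene, while the Cyba window lies outside its gene.
Cybb: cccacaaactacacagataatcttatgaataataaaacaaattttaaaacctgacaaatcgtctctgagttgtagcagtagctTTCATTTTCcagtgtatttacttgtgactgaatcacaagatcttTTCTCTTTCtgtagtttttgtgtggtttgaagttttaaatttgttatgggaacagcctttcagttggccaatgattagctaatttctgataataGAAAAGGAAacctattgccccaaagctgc
Cyba: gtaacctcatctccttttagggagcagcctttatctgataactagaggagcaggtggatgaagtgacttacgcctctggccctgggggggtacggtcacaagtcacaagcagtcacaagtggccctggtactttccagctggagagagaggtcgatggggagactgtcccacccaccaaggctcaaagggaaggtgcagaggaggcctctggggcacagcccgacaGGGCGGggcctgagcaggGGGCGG
Nox4: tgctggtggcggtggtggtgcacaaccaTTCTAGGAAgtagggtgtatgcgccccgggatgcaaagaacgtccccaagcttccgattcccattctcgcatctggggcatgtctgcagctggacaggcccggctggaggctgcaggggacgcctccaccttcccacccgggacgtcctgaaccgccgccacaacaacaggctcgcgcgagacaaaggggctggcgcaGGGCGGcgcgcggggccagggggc

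The motifs searched were GAGGAAGT (PU.1), GAAANNGAA (core of the interferon-stimulated response element), TTCNNNGAA (STAT), GGGANTTTC (kappaB), AGATAAG (motif of GATA factors), TGACTCA (AP-1), CACGTG (E-box), GGGCGG (GC box) and TATAAA (the TATA box). The search covered the whole 300-base window, including 50 bases after the start that are not shown. Cybb held 3 matches to GAAANNGAA, a motif found in 8.53% of the 32544 distinct windows in the table, and no match to the other motifs. Cyba held 2 matches to the GC box, found in 35.9% of windows, the nearer directly before the start. Nox4 held 1 GC box at 18 bases before the start and 1 match to TTCNNNGAA, a motif found in 8.33% of windows. The Ncf1 window, on the minus strand at chr5:134229626-134229875 for its first 250 bases, held 1 GC box, 1 match to GAAANNGAA and 1 to TTCNNNGAA, and those to the latter pair overlap. The G and C content of the 250 bases was 34% for Cybb, 54.4% for Ncf1, 60% for Cyba and 67.2% for Nox4, against a median of 52.4% over all windows. These matches are letters in a window and were not tied to any measurement of binding.

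All 9 genes passed the minimum mean of 10 that was met by 18479 genes. Together they held 0.0312% of the summed mean normalized counts. The level of a gene in mixed tissue reflects both the number of cells that use it and the RNA of each cell, and these cannot be told apart here. The place of each gene is given as a percentile, which is the percent of the 18479 genes with a lower mean normalized count. If this count is not divided by length, which was not tested, long transcripts take higher places than short ones of the same level. The median of the 18479 genes was 668, and 6 of the 9 genes lay below it.

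**Figure D1:**
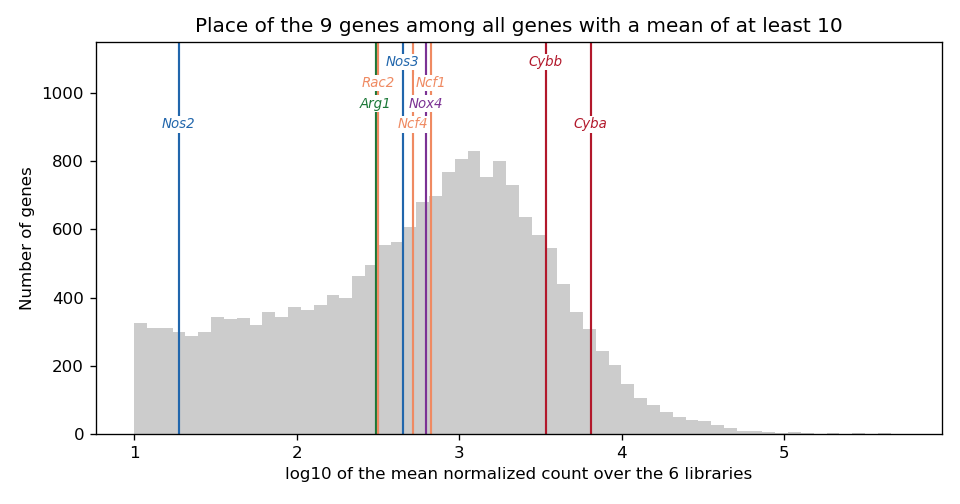
Histogram of the log10 mean normalized count of the 18479 genes with a mean of at least 10 (x axis) by number of genes (y axis), with a vertical line for each of the 9 genes, coloured by role. Cyba and Cybb lie in the upper part of the distribution, Ncf1, Nox4, Ncf4, Nos3, Rac2 and Arg1 between 305 and 670, and Nos2 near the lower end at 18.8.

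The genes of the membrane core had the highest levels per kilobase of the 9 with each of the 3 lengths tried. Cybb encodes gp91phox, the catalytic subunit that carries electrons across the membrane. It is annotated at chrX:9435252-9487771, minus strand (ENSMUSG00000015340, build GRCm38). It averaged 3407 normalized counts, which placed it at percentile 85.7. Cyba encodes p22phox, the smaller subunit that stabilizes Cybb and also Nox4. It is annotated at chr8:122424776-122432930, minus strand (ENSMUSG00000006519). The mean normalized count of Cyba was 6432, at percentile 93.6.

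Mean normalized counts are given for each gene as deposited, and ratios between genes were taken per kilobase. If the deposited means were already divided by length, these ratios divide by it a second time. The ranges given cover 3 lengths and not the undivided means, with which some ratios lie outside them. Undivided, Cyba at 6432 and Cybb at 3407 are closer to each other than with any of the 3 lengths. The length was the longest annotated transcript of each gene unless another is named. On that scale Cyba stood at 8645 and Cybb at 717 mean normalized counts per kilobase. Cyba was therefore 12.1 times Cybb, and 10.6 times with the length of all exons together or 5.60 times with the coding length alone. The transcripts of Cyba and Cybb differ much in length, at 744 and 4752 bases, so the size of this ratio moved with the length used while its direction did not. Per kilobase, Cyba lay at percentile 97.7 and Cybb at percentile 76.3 of the genes with a known length. Whether these levels differ beyond the spread between mice could not be tested for any pair of genes.

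The genes of the cytosolic subunits had lower levels per kilobase than either gene of the core with each of the 3 lengths. Ncf1 encodes p47phox, the organizer that is phosphorylated when the oxidase is switched on, and is annotated at chr5:134220053-134229625, minus strand (ENSMUSG00000015950). Ncf1 averaged 670 normalized counts, at percentile 50.1. Ncf4 encodes p40phox, which binds a lipid of the phagosome membrane, and is annotated at chr15:78244801-78262580, plus strand (ENSMUSG00000071715). Ncf4 averaged 521, at percentile 45.1. Rac2 encodes the Rac GTPase of blood cells and is annotated at chr15:78559167-78572783, minus strand (ENSMUSG00000033220). Rac2 averaged 316, at percentile 36.6.

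Per kilobase of the longest transcript, Ncf4 stood at 356, Ncf1 at 233 and Rac2 at 104 mean normalized counts. Cybb was 2.01 times Ncf4, 3.08 times Ncf1 and 6.89 times Rac2 on this scale. With the coding length the ratios were 3.89 to Ncf4, 3.60 to Ncf1 and 3.63 to Rac2, so which gene stood farthest from Cybb turned with the length. The order within the cytosolic group turned with the length used. With the coding length, Ncf1 was highest at 553, followed by Rac2 at 549 and Ncf4 at 512, so these 3 genes have no firm order.

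Of the other genes tied to the phagocyte oxidase, the 4 described here were each above 1000. Rac1, the widely used relative of Rac2, had a mean normalized count of 5253. Per kilobase Rac1 was 12.1 times Rac2, and between 11.5 and 15.1 times with the other lengths. Cybc1, a chaperone of the core listed under its older symbol BC017643, had a mean normalized count of 1497. Hvcn1, the proton channel that balances the charge moved by the oxidase, had 1640, and Rap1a, a small GTPase found with the core, had 3299.

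Nox4 encodes a catalytic subunit of the same family that needs Cyba but none of the cytosolic subunits and makes mainly hydrogen peroxide. It is annotated at chr7:87246096-87398710, plus strand (ENSMUSG00000030562). Nox4 averaged 620 normalized counts, at percentile 48.4, and its level per kilobase was 158. Cybb was 4.54 times Nox4 per kilobase, 8.02 times with all exons together and 5.71 times with the coding length. The longest annotated transcript of Nox4 has 3921 bases in 5 exons, whereas all its exons together span 8471 bases and its coding part 1776 bases, so its level per kilobase is among the least certain of the 9.

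The other catalytic NADPH oxidase genes had mean normalized counts of at most 20.1. Of the 11 genes for other oxidases and their partners, 6 had a mean of at least 10. Nox1 had a mean normalized count of 1.67 and Nox3 of 0.517, and Noxa1, an activator of Nox1, was listed at 0. Noxo1, the organizer that pairs with it, had 28.2. Duox1 and Duox2, which make hydrogen peroxide at epithelial surfaces, had 20.1 and 9.91, and their maturation factors Duoxa1 and Duoxa2 had 20.9 and 7.40. The 3 genes above 1000 in this group were Poldip2, a protein that binds Cyba, at 3912 and the scaffold genes Sh3pxd2a and Sh3pxd2b at 1973 and 1108. Cybb and Nox4 were thus the catalytic NADPH oxidase genes with a mean above 100.

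**Figure D2:**
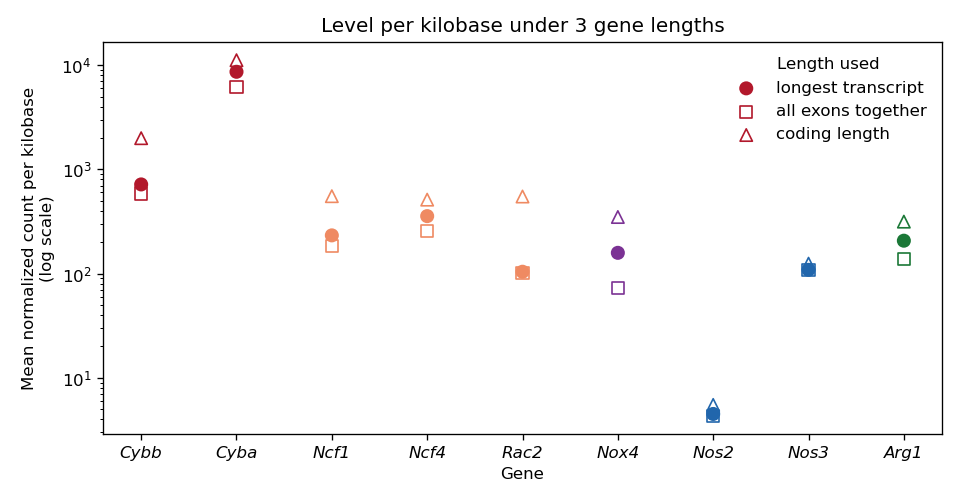
Mean normalized count per kilobase (y axis, log scale) of each of the 9 genes (x axis) with the longest transcript, all exons together or the coding length as the length, coloured by role. Cyba is highest and Nos2 lowest with every length, and Nox4 and Rac2 move most between lengths.

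Of the nitric oxide synthases, Nos3 was moderately and Nos2 barely represented. Nos3 encodes the synthase of endothelium and is annotated at chr5:24364810-24384474, plus strand (ENSMUSG00000028978). Nos3 averaged 449 normalized counts, at percentile 42.4. Nos2 encodes the synthase that activated macrophages induce and is annotated at chr11:78920787-78960254, plus strand (ENSMUSG00000020826). Nos2 averaged 18.8, at percentile 5.93, which is 113 normalized counts summed over the 6 libraries. Per kilobase Nos3 stood at 109 and Nos2 at 4.49, a ratio of 24.2, and between 22.7 and 25.5 with the other lengths.

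Nos3 shares part of its transcript with genes on the opposite strand, Atg9b and the antisense gene Gm15587. Of its words of 50 bases, 80.0% occur in no other gene on either strand, whereas 100% are its own on the gene's strand. The library kit keeps strand, per the labels, but whether strand was used in quantification is not given in the sources used here, so reads of these genes may be mixed. Ncf1 overlaps Gtf2ird2 in the same way, with 92.6% of its words in no other gene on either strand. The corresponding value was at least 97.6% for the other 7 genes.

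Of the 7 genes for Nos1 and regulators of the synthases, 6 had a mean of at least 100. Nos1, the neuronal synthase, had a mean normalized count of 285, and per kilobase Nos3 was 3.86 times Nos1, 4.26 times with all exons together and 1.92 times with the coding length. Among regulators, Cav1, which binds and holds Nos3 inactive, had 6366, and Nostrin, which draws it from the membrane, had 1173. Ddah1 and Ddah2, which break down methylated arginines that block the synthases, had 1150 and 3357. The 6 genes that make or recycle the cofactor tetrahydrobiopterin, or regulate its synthesis, each passed 100. Gch1, the rate-limiting enzyme of the cofactor, had 508 and its feedback regulator Gchfr had 173. Of the subunits of the nitric oxide receptor, Gucy1a1 and Gucy1b1 (listed as Gucy1a3 and Gucy1b3) had 3226 and 2226, and Gucy1a2 had 60.1. Per kilobase of the longest transcript, Gucy1a1 and Gucy1b1 stood at 685 and 691. They stood at 463 and 567 with all exons together and at 1556 and 1197 with the coding length, so this pair has no firm order.

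Arg1 encodes the cytosolic arginase and is annotated at chr10:24915221-24927484, minus strand (ENSMUSG00000019987). Arg1 averaged 305 normalized counts, at percentile 36.1, and its level per kilobase was 207. Per kilobase Arg1 was 46.0 times Nos2, and between 32.1 and 57.4 times with the other lengths. The undivided means, 305 for Arg1 and 18.8 for Nos2, give a smaller ratio than any of these. Arg1 was 1.84 times Arg2, the mitochondrial arginase, which had a mean normalized count of 161. This ratio was 1.22 with all exons together and 2.08 with the coding length. Downstream of arginase, Oat, which converts ornithine in mitochondria and whose loss in people causes gyrate atrophy of the choroid and retina, had 30307, at percentile 99.3. Odc1, which turns ornithine into polyamines, had 7830. Slc7a2 and Slc7a1, carriers of arginine, had 2711 and 272. Ass1 and Asl, which rebuild arginine from citrulline, had 357 and 1578.

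Of the 5 genes for enzymes that act on superoxide and peroxide, 3 were above 1000. Cat had a mean normalized count of 11267, Sod1 10976 and Sod2 6564, whereas the extracellular Sod3 had 122. Mpo, the peroxidase of neutrophil granules that uses the peroxide made by the oxidase, was listed at 0. Of the 44 other genes of the pathway, 38 had a mean of at least 10, 33 of at least 100 and 24 of at least 1000. The counts for the 9 genes described here were 9, 8 and 2. Of all 33924 genes, 18479 had a mean of at least 10, and the shares above the other steps were not counted. Sod3 at 122 lay at percentile 24.5 of the 18479 genes, so most of them passed 100. The macrophage marker Aif1, at 1014, ranked 7531 from the top, so levels above 1000 were common too. The counts of the lists are therefore a description only.

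**Figure D3:**
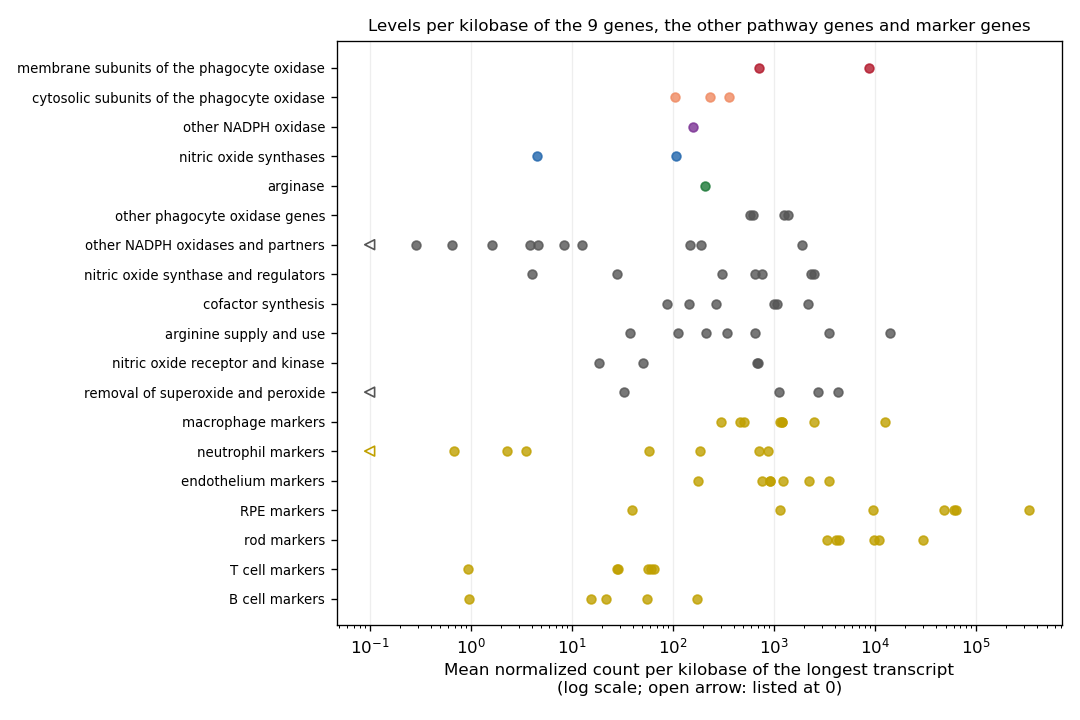
Mean normalized count per kilobase of the longest transcript (x axis, log scale) for the 9 genes by role, the 44 other pathway genes (grey) and markers of 7 cell types (yellow); each point is a gene, and open arrows mark genes listed at 0. Cybb, Ncf1, Ncf4, Rac2, Nox4, Nos3 and Arg1 lie between 104 and 717, below the RPE and rod markers other than Best1 (39.3), and Nos2 lies at 4.49.

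Markers of several cell types were present beside these genes. Of the 7 RPE markers, 6 were above 1000 with a highest value of 397586 for Ttr, and Best1 had 81.8. All 6 rod markers were above 1000, from 15466 to 139449, in tissue from which the neural retina had been removed. All 8 macrophage markers were above 1000, from 1014 for Aif1 (percentile 59.2) to 13165 for C1qa (percentile 97.7). Per kilobase Cybb was 0.589 times Csf1r, the receptor that macrophages depend on, and 1.02 times with the coding length, so this pair has no firm order. Of the 8 neutrophil markers, 0 were above 1000 and 4 had a mean of at least 100. Mpo was listed at 0, Elane had 0.676, Ly6g 2.14 and Cxcr2 10.8. Camp had 140, Csf3r 202, S100a8 358 and S100a9 450. All 7 endothelial markers passed 100, from 717 for Cdh5 to 7926 for Emcn, and Nos3 was 0.605 times Cdh5 per kilobase, or between 0.408 and 0.637 times with the other lengths. Mean normalized counts ran from 2.40 (Cd3e) to 202 (Cd4) among the T cell markers. Among the B cell markers they ran from 7.65 (Pax5) to 246 (Cd79b). The part of each cell type in the level of Cybb, Ncf1, Ncf4, Rac2 or Nos3 was not tested.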

How the data were processed

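RPE/choroid libraries of 3 young and 3 aged mice were used as the authors' deposited table of 1 line per gene. According to the study's methods and the labels, the authors trimmed read pairs with BBDuk, used STAR and the GRCm38 transcript annotation, quantified transcripts with Sailfish, scaled them to total counts and compared the ages with DESeq2. The signal in the deposited table is the authors' mean normalized count over all 6 libraries. The remaining columns hold the authors' own log2 fold change, its standard error, the Wald statistic, p-value and adjusted p-value of the age comparison and were not used. Values per library were not analysed here, so no test was run. The depth of single libraries is unknown, and the means add up to 40816668.

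Gene positions and lengths came from GENCODE vM21 on GRCm38, which gave a length for 97.4% of the 18479 genes with a mean of at least 10. Levels per kilobase divide the mean normalized count by the longest transcript, on the untested reading that the count was not already divided by length. Shared sequence was measured in words of 50 bases over all annotated transcripts. Motifs were counted as exact letters. The percentile and motif functions were tested on made-up input with known answers. Python 3.11.15, numpy 2.4.6, pandas 2.3.3 and matplotlib 3.10.9 were used. The genes named are the 9 genes, the 44 other pathway genes and the marker lists, none picked by value, and all were chosen with earlier results of these data known. A further gene of the pathway list is not reported here. Alternatives were other minimum means, other lengths and a single strand for motifs.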

Additional observations from a re-analysis of the deposited data

How the results depend on the processing

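No paired analysis was possible because the level used is a mean over all libraries. For the same reason leaving out replicates, edgeR, limma, TMM and other filters on counts were not run. The percentile of a gene depends by construction on the genes it is ranked among. Ranked among the 25517 genes with a mean above 0, the percentiles were 95.3 for Cyba, 89.6 for Cybb, 63.9 for Ncf1, 62.7 for Nox4, 60.2 for Ncf4, 58.3 for Nos3, 54.1 for Rac2, 53.7 for Arg1 and 31.9 for Nos2. Ranked among the 15671 genes with a mean of at least 50, they were 92.4 for Cyba, 83.1 for Cybb, 41.1 for Ncf1, 39.2 for Nox4, 35.3 for Ncf4, 32.0 for Nos3, 25.2 for Rac2 and 24.6 for Arg1, and Nos2 fell under the minimum. With the length of all exons together, levels per kilobase were 6190 for Cyba, 587 for Cybb, 258 for Ncf4, 183 for Ncf1, 137 for Arg1, 102 for Rac2, 73.2 for Nox4 and 4.27 for Nos2, and that of Nos3 was the same. With the coding length they were 11166 for Cyba, 1993 for Cybb, 553 for Ncf1, 549 for Rac2, 512 for Ncf4, 349 for Nox4, 315 for Arg1, 124 for Nos3 and 5.49 for Nos2. The coding length was taken from GENCODE in place of a protein table, and it overstates genes with long untranslated parts. Cyba, then Cybb, stood first and Nos2 last with each of the 3 lengths and also without division by length. On the strand of the gene alone, Cybb held 1 motif match in place of 3 and Ncf1 held 2 in place of 3.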

Other observations

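The lowest means in the table are whole multiples of 6 values, between 0.157 and 0.174, as a single count in 1 of the 6 libraries would give after division by 6. Times 6 these values lie between 0.941 and 1.04, so a normalized count is close to 1 count of the table that the authors' comparison was run on. Genes with counts in a single library held 1 count in 576 cases, 2 counts in 1014, 3 counts in 64, 4 counts in 222, 5 counts in 13 and 6 counts in 47. Even numbers of counts were thus more frequent than the odd numbers next to them. The match was made within rounding of the deposited digits, and the cause was not tested.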
